A study of Mus musculus with 40 samples.

Results

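The genes Siglech, Irf8, Bst2, Runx2, Cox6a2, Ly86, Mpeg1, Cd7 and Clec12a are known for their expression in plasmacytoid dendritic cells. They are 9 of the 49585 gene rows of a count table of mouse bone marrow progenitors, and they were chosen by that role and by their higher level in all-lymphoid or B cell-biased progenitors in earlier results of the same libraries. Their rise along the populations is therefore a property of the selection and is given as a description without a test, and the selection had no numeric threshold. The comparisons of Mbd3del with control mice use the same libraries, ALPs and BLPs included, so they are not independent of the selection.

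The libraries came from 10 mice of the mixed strain C57BL6/129Ola, aged 46 to 51 days. The 5 control mice had the genotype Mbd3_Flox/Flox, in which the gene is intact but flanked by recombination sites, and the 5 Mbd3del mice had Mbd3_Del/Del. Mbd3 encodes a subunit of NuRD, a complex that remodels nucleosomes and deacetylates histones. Each mouse gave 1 library of each of 4 sorted populations, so that 8 groups of 5 libraries were compared. Haematopoietic stem cells (HSCs) were gated as CD45+ CD150+ CD48- EPCR+. Cells gated as lineage-negative, Sca-1+, c-Kit+, Flt3hi and B220- made up lymphoid-primed multipotent progenitors (LMPPs, without IL-7Ra), all-lymphoid progenitors (ALPs, with IL-7Ra and without Ly6D) and B cell-biased progenitors (BLPs, with both). A pool held 100 or 150 cells, and the sources differ on which of these numbers applied to HSCs. No plasmacytoid dendritic cells were sorted, and no marker named in the gates is a product of the 9 genes, although no source used here lists the antibodies of the lineage mix. No source used here says how the deleted allele was produced or names a Cre driver.

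Plasmacytoid dendritic cells are rounded cells of bone marrow, blood and lymphoid organs that release large amounts of type I interferon when toll-like receptors in their endosomes meet viral nucleic acid. They arise from myeloid and from lymphoid progenitors of the marrow, and their identity depends on the E protein Tcf4, which Id2 opposes, together with Irf8, Runx2, Spib, Bcl11a and Zeb2. In mice they are recognised by surface Siglec-H and by Bst2, the target of the PDCA-1 antibody.

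Promoter sequences of RefSeq (GRCm38.p6, the 250 bases before the annotated start) were at hand for 7 of the 9 genes, in 8 windows since Irf8 has a second start, and not for Cox6a2 and Cd7. Those of Siglech, Irf8 and Bst2 are shown because Siglech began at the counting floor in HSCs, Bst2 was already transcribed there, and Irf8 was the gene whose genotypes did not overlap in BLPs. Capitals mark matches, on either strand, to an interferon regulatory factor element (GAAANNGAA), 2 E-boxes (CAGCTG and CACCTG), a RUNX motif (TGTGGT) and a PU.1 motif (GAGGAA).
Siglech (chr7:55767934-55768183, plus strand): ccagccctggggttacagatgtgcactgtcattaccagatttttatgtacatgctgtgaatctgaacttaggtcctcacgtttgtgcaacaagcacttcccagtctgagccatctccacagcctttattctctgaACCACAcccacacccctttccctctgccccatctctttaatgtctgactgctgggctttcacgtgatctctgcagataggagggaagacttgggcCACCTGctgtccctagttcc
Irf8, first start (chr8:120736108-120736357, plus strand): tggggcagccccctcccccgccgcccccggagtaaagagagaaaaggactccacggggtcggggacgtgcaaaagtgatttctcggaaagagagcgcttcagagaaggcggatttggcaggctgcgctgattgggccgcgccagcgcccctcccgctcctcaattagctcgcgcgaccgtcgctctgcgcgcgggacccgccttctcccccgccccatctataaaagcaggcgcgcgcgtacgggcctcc
Bst2 (chr8:71537473-71537722, minus strand): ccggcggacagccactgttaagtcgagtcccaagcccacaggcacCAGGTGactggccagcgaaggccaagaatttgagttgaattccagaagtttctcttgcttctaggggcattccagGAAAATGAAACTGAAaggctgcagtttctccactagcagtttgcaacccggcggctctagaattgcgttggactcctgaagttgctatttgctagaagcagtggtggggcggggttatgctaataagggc

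The Bst2 window held the interferon regulatory factor element at positions -130 and -124 from the start, as a pair that overlaps by 3 bases, and the E-box CACCTG at -205. The Siglech window held CACCTG at -20 and the RUNX motif at -115. In the first Irf8 window none of the 5 motifs was found, and the second Irf8 window held CACCTG at -205. Elsewhere the RUNX motif was found for Runx2 at -80 and for Clec12a at -155, and the PU.1 motif for Clec12a at -61 and -47. The windows of Ly86 and Mpeg1 had no match. Short motifs are common: among 32851 promoter windows of the same length, GAAANNGAA occurred in 7.13%, CAGCTG in 13%, CACCTG in 17.2%, TGTGGT in 14% and GAGGAA in 23.3%. A match of letters is a description and not evidence of a bound factor.

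Each library held 2974305 to 9082610 gene counts, and levels are CPM, counts scaled to the total gene counts of the library, in which 3 counts equal 0.330 to 1.01 CPM. Mbd3 had 8.18 to 165 CPM in the 20 control libraries and 0 to 3.24 CPM in the 20 Mbd3del libraries, although no source says which exons the deletion removes. For LMPPs of Mbd3del mice the sample title says floxed and the genotype field says deleted, and the Mbd3 counts go with the latter. Transcripts of the gated surface proteins followed the labels: Il7r reached 6.60 CPM at most in LMPPs and 245 CPM or more in ALPs, and Ly6d reached 493 CPM at most in ALPs and 3646 CPM or more in BLPs. The sex labels of the controls mouse10372 and mouse10381 go against their sex-linked transcripts. The female label of mouse10372 went with 194 to 267 CPM of Ddx3y, a gene of the Y chromosome, and the male label of mouse10381 with 227.5 to 309 CPM of Xist. Both mice are controls under either label, and results are also given without them. Gene positions are those of GENCODE M21 on GRCm38. Sets of 5 values below follow the order mouse10357, mouse10358, mouse10372, mouse10380 and mouse10381 for control and mouse10360, mouse10361, mouse10365, mouse10376 and mouse10384 for Mbd3del.

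Of the genes for surface proteins, Siglech (ENSMUSG00000051504.18), on chromosome 7 from 55768178 to 55778925 (plus strand), encodes the receptor Siglec-H, which signals through the adaptor DAP12. It stayed near the counting floor in HSCs and LMPPs, with 28 and 25 counts summed over the 5 control libraries of each. In control ALPs the 5 libraries had 54.1, 54.2, 45.8, 80.9 and 113 CPM, and in control BLPs 484, 301, 139, 164 and 249 CPM. The lowest BLP library thus lay above the highest ALP library, and the mean went from 69.5 ± 27.4 to 267 ± 137 CPM (n = 5 each, SD). In Mbd3del mice the ALP libraries had 34.1, 62.3, 29.7, 72.9 and 33.4 CPM and the BLP libraries 1146, 361, 447, 554 and 519.7 CPM. The library of mouse10360 stood alone at the top of the Mbd3del BLPs.

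Cd7 (ENSMUSG00000025163.6), on chromosome 11 from 121036747 to 121039418 (minus strand), encodes an immunoglobulin-like protein of T and natural killer cells and their progenitors. It had 12 counts in all 5 control HSC libraries together and 0 to 12.9 CPM in control LMPPs, where mouse10358 had none and the other 4 mice had 10.5 CPM or more. Control ALPs had 11.3 to 36.2 CPM. Control BLPs had 230.3, 124, 113, 28.5 and 55.9 CPM, with mouse10357 highest and mouse10380 lowest. Mbd3del BLPs had 532, 206, 195, 311 and 282 CPM.

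Clec12a (ENSMUSG00000053063.11), on chromosome 6 from 129342691 to 129365303 (plus strand), encodes an inhibitory lectin that senses dead cells and signals through the phosphatases SHP-1 and SHP-2. Unlike Siglech, it was far above the counting floor in LMPPs: 6.26 ± 4.81 CPM in control HSCs, 186 ± 114 in LMPPs, 536 ± 249 in ALPs and 936 ± 256 at the BLP stage (n = 5 each, SD). Among control ALPs mouse10372 had 103 CPM while the other 4 mice had 558 to 726 CPM.

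Ly86 (ENSMUSG00000021423.5), on chromosome 13 from 37345208 to 37419036 (plus strand), encodes MD-1, the partner of the toll-like receptor homologue RP105. It had 1.30 ± 0.547 CPM in control HSCs, 359 ± 151 in ALPs and 507 ± 94.2 in BLPs (n = 5 each, SD). Its control LMPP libraries had 0, 4.11, 58.5, 0.799 and 6.88 CPM, so that the mean of 14.1 CPM in that group rests on mouse10372. Bst2 (ENSMUSG00000046718.8), on chromosome 8 from 71534255 to 71537456 (minus strand), encodes tetherin, an interferon-induced protein that holds budding virus at the cell surface. Its course was the flattest, from 123 ± 27.1 CPM in control HSCs through 157 ± 42.4 in LMPPs and 209.9 ± 58.9 in ALPs to 232 ± 96.3 in BLPs (n = 5 each, SD). Control BLP libraries of Bst2 (119 to 359 CPM) overlapped control HSC libraries (93.2 to 164 CPM), so the 2 stages are not separate in control mice.

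The 2 transcription factor genes started from different levels. Irf8 (ENSMUSG00000041515.9), on chromosome 8 from 120736358 to 120756694 (plus strand), encodes a factor that conventional and plasmacytoid dendritic cells and monocytes depend on or express. It went from 5.64 ± 4.65 CPM in control HSCs to 558 ± 169 in ALPs and 625 ± 189.9 in BLPs (n = 5 each, SD). Control LMPPs had 16.4, 16.2, 13.7, 108 and 21.7 CPM, so that mouse10380 stood apart from the other 4. Runx2 (ENSMUSG00000039153.16), on chromosome 17 from 44495987 to 44814797 (minus strand), encodes the RUNX factor needed for bone formation and for the exit of plasmacytoid dendritic cells from the marrow. It was already transcribed in control HSCs at 74.8 ± 23.7 CPM and had 107 ± 44.7 CPM in LMPPs, 220.4 ± 88.2 in ALPs and 236 ± 97.4 at the BLP stage (n = 5 each, SD).

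The other 2 genes have roles in defence and metabolism. Mpeg1 (ENSMUSG00000046805.9), on chromosome 19 from 12460779 to 12465283 (plus strand), encodes perforin-2, a pore-forming protein that acts on engulfed bacteria. It had 1.18 ± 1.14 CPM in control HSCs, 279 ± 182 in ALPs and 274 ± 101 in BLPs (n = 5 each, SD), and in control LMPPs mouse10372 and mouse10381 had 24.2 and 17.4 CPM against 0 to 2.15 CPM in the other 3. Cox6a2 (ENSMUSG00000030785.8), on chromosome 7 from 128205435 to 128206387 (minus strand), encodes the form of a cytochrome c oxidase subunit found in heart and skeletal muscle. It went from 3.14 ± 0.894 CPM in control HSCs and 19.4 ± 12.7 in LMPPs to 485 ± 126 in ALPs and 594 ± 198 in BLPs (n = 5 each, SD).

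Compared per kilobase of exon, the order of the genes changed along the populations. Bst2 was the highest in control HSCs at 136.7 CPM per kb, above Runx2 at 8.46 and Cox6a2 at 4.61, and the ranges of Bst2 and Runx2 did not overlap. In control ALPs Cox6a2 led at 713 CPM per kb, with Bst2 at 233 and Ly86 at 98.9, and in control BLPs it led at 873, with Bst2 at 257 and Clec12a at 169. In both populations the Cox6a2 range lay above that of Bst2. Below Clec12a in control BLPs the neighbours overlapped throughout, from Ly86 at 139.5 through Cd7, Irf8, Siglech and Mpeg1 to Runx2 at 26.7 CPM per kb. Mbd3del groups had Bst2 on top in HSCs and LMPPs and Cox6a2 on top in ALPs and BLPs as well. In Mbd3del BLPs Cd7 followed Bst2 at 269.5, and Siglech had 179.0 CPM per kb, with overlapping neighbours.

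**Figure D1:**
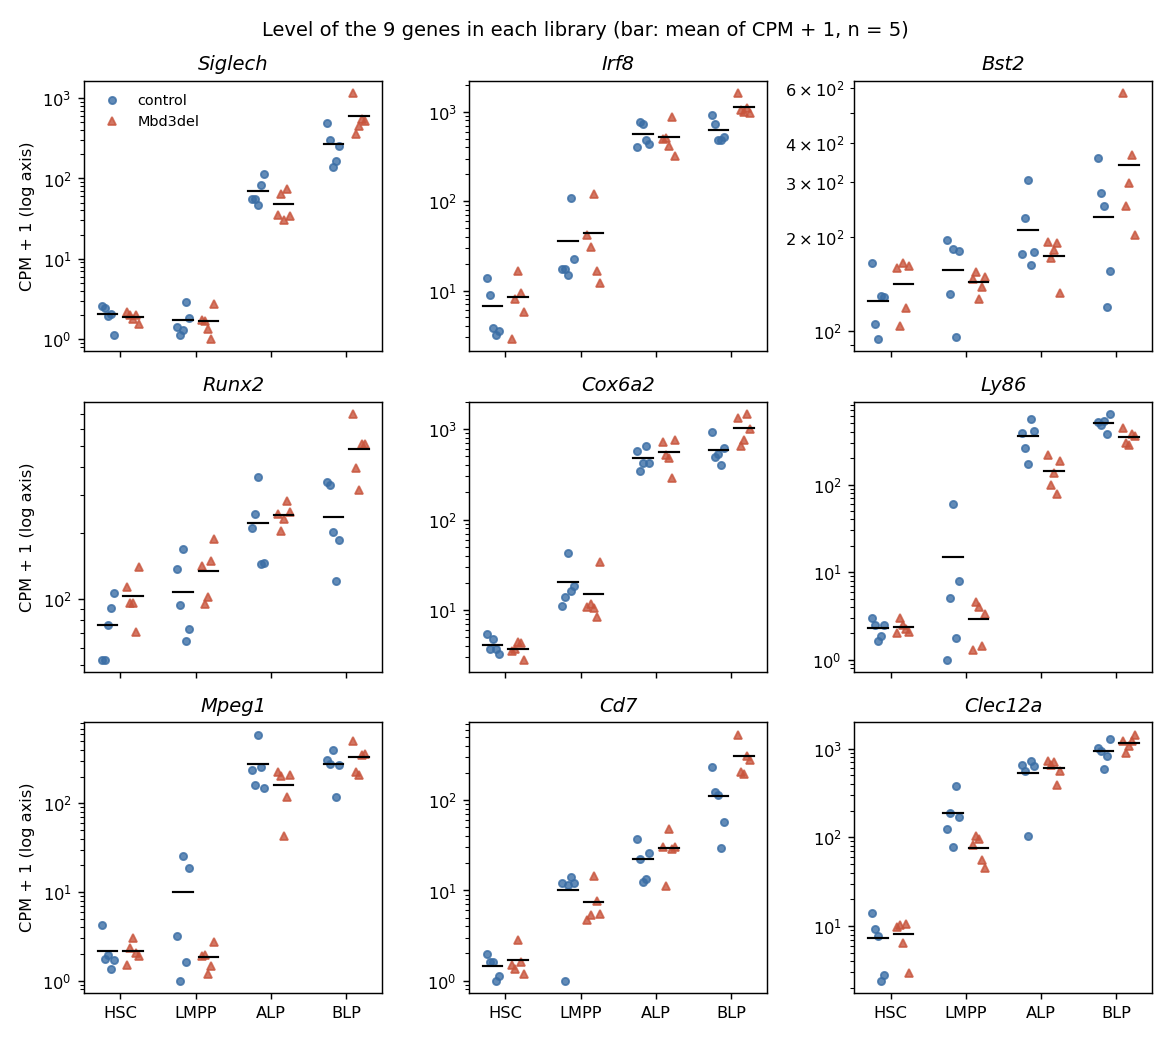
Level of each gene in every library, with the population on the horizontal axis and CPM + 1 on a logarithmic vertical axis. Circles are control and triangles Mbd3del libraries (n = 5 per group), and bars are means of CPM + 1. Siglech and Cd7 have clearly higher means in BLPs than in ALPs, Irf8, Cox6a2 and Mpeg1 reach most of their control BLP level in ALPs, and Bst2 moves least.

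BLP libraries lay above all HSC libraries for 8 of 9 genes in control mice and 9 of 9 in Mbd3del mice, which the selection favours. Over all genes with enough counts the share was 6.54% in control and 7.65% in Mbd3del mice. At the last step, all 5 BLP libraries lay above all 5 ALP libraries for 1 of 9 genes in control mice, Siglech, and for 7 of 9 in Mbd3del mice, all but Cox6a2 and Mpeg1. The share over all genes was 0.752% in control and 1.6% in Mbd3del mice.

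ALPs and BLPs of the same mouse can be set side by side. In Mbd3del mice each of the 9 genes was higher in BLPs than in ALPs in 5 of 5 mice. In control mice this held in 5 of 5 mice for Siglech, Cd7 and Clec12a, in 4 of 5 for Cox6a2 and Ly86, in 3 of 5 for Irf8, Runx2 and Mpeg1 and in 2 of 5 for Bst2. ALP and BLP levels helped to choose the 9 genes, and the share of all genes that rose in every mouse was not computed. These counts therefore describe the 9 genes and do not set them apart from other genes. The ratio of BLP to ALP CPM for Siglech ran from 2.02 to 8.93 over control mice (median 3.03) and from 5.8 to 33.6 over Mbd3del mice (median 15). For Irf8 it ran from 0.674 to 2.29 (median 1.01) and from 1.27 to 3.26 (median 2.38). For Cd7 it ran from 2.23 to 10 and from 4.1 to 20. The ranges of the 2 genotypes overlapped for each of the 9 genes, Siglech and Irf8 included.

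**Figure D2:**
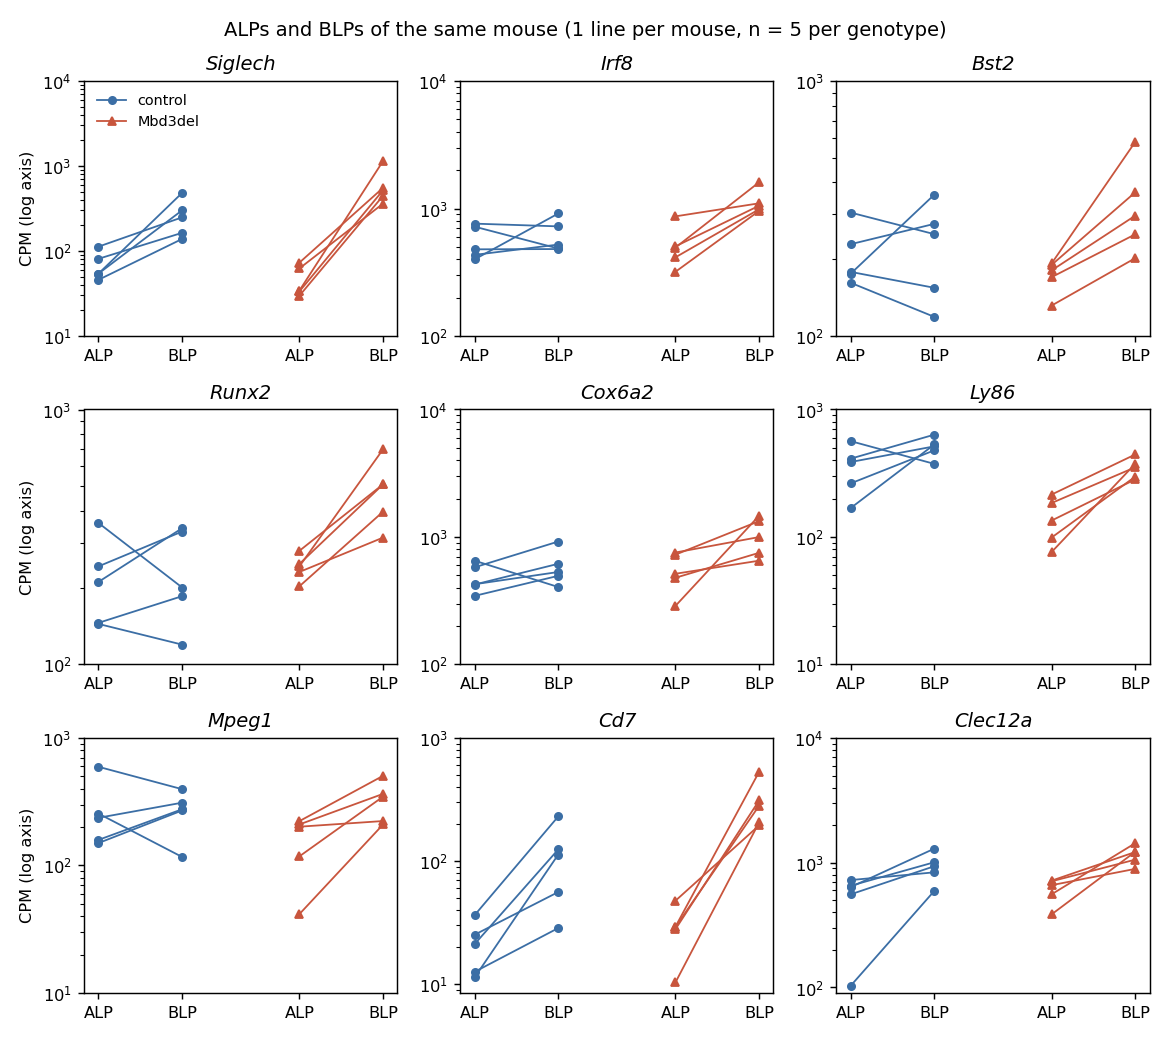
CPM of each gene (logarithmic axis) in the ALPs and BLPs of every mouse, with 1 line per mouse, control on the left and Mbd3del on the right of each panel (n = 5 mice per genotype). All lines of the Mbd3del mice slope upwards, while control lines of Irf8, Bst2, Runx2, Cox6a2, Ly86 and Mpeg1 go both ways.

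The difference of the ALP to BLP step between genotypes was tested as an interaction with the quasi-likelihood F test of edgeR, in which p is adjusted over all genes tested. This fit, like those of the steps before, took libraries of the same mouse as independent, and the SEs given here come from it. No gene of 9 was called (0% of 12123 genes were), and none was called by DESeq2 (0.0825% of all genes were). With the mouse as a block edgeR called no gene at this step either. This step is made of the ALP and BLP levels by which the genes were chosen, so the estimates that follow describe the 9 genes and do not set them apart from other genes. An unadjusted p under 0.05 was found for 3 genes: Siglech at 1.80 ± 0.503 (SE), Irf8 at 0.97 ± 0.341 (SE) and Runx2 at 0.89 ± 0.384 (SE), each with an edgeR adjusted p = 1. Over all genes 4.03% had such a p. Without control mouse10372 and mouse10381 the Siglech estimate was 1.51 and that of Irf8 0.86. The steps before gave no call either. At the HSC to LMPP step 0% of 12576 genes and 0 of 8 tested members were called by edgeR, 0 of 8 by DESeq2 (0.167% of all genes), and 0 had an unadjusted p under 0.05 (5.13% of all genes). At the LMPP to ALP step 0% of 12237 genes and 0 of 9 members were called by edgeR and 0 by DESeq2 (0.0899% of all genes). Clec12a, 1 of 2 members with an unadjusted p under 0.05 at this step, had a log2 difference of 1.59 ± 0.583 (SE, edgeR adjusted p = 0.999). Such a p was found for 4.51% of all genes. Mpeg1 did not pass the expression filter in LMPPs, where the 5 Mbd3del libraries held 26 counts in all, and entered this step through ALPs, in which it is high by selection. The Mpeg1 estimate was 2.90, and -0.31 without mouse10372 and mouse10381, and nothing is read from it. Siglech did not pass the filter in LMPPs either, with 25 counts in all control and 21 in all Mbd3del libraries. It also entered this step through ALPs, and nothing is read from its estimate of -0.445.

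In BLPs, 8 of the 9 genes had a higher estimate in Mbd3del than in control mice, and Ly86 a lower one. The median log2 fold change of the 9 genes was 0.848, against -0.0289 over all 10772 genes tested, which is a description since BLP levels helped to choose them. The Irf8 libraries had 914, 724, 486, 481 and 521 CPM in control and 1609, 1053, 987, 1099 and 959 CPM in Mbd3del BLPs. Every Mbd3del library of Irf8 was above every control library, which held for 1 of the 9 genes, and over all genes for 1.51%. No member lay wholly below (1.07% of all genes did). The Irf8 ratio of means was 1.83, with a log2 fold change of 0.90 ± 0.205 (SE) and an edgeR adjusted p = 0.139. For Siglech, whose values are given above, 3 Mbd3del libraries exceeded the highest control library and 4 control libraries lay under the lowest Mbd3del library. Its log2 fold change was 1.21 ± 0.35 (SE, edgeR adjusted p = 0.279).

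Runx2 had 342, 332, 200.3, 119.6 and 185 CPM in control and 698, 398, 315, 509 and 509 CPM in Mbd3del BLPs. Of its Mbd3del libraries 4 were above all controls, and its log2 fold change was 1.08 ± 0.283 (SE, edgeR adjusted p = 0.216). Cd7, given above, had the largest estimate, 1.51 ± 0.445 (SE, edgeR adjusted p = 0.305), and a ratio of means of 2.77. Cox6a2 had 921, 496, 531, 405 and 616 CPM in control and 1333, 652, 752, 1472 and 999 CPM in Mbd3del BLPs. The groups overlapped through control mouse10357, and the log2 fold change was 0.85 ± 0.271 (SE, edgeR adjusted p = 0.346).

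Ly86 went the other way, with 514, 479, 532, 374 and 635 CPM in control and 444, 298, 283, 376 and 352 CPM in Mbd3del BLPs. Here 4 control libraries lay above the highest Mbd3del library, and the log2 fold change was -0.52 ± 0.196 (SE, edgeR adjusted p = 0.465). Bst2 had 0.58 ± 0.315, Clec12a 0.34 ± 0.212 and Mpeg1 0.29 ± 0.313 (log2 fold change ± SE, edgeR adjusted p = 0.688, 0.762 and 0.901).

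Of the 9 members 0 passed the edgeR threshold in BLPs, where 0.0743% of all genes did, and 6 had an unadjusted p under 0.05: Irf8, Runx2, Siglech, Cd7, Cox6a2 and Ly86. Over all genes 8.31% had such a p in BLPs. DESeq2 called 4 of 9 higher, and over all genes 1.04% higher and 1.47% in either direction. These were Irf8 (DESeq2 adjusted p = 0.0035), Runx2 (0.0156), Cd7 (0.0231) and Siglech (0.0232). BLP levels helped to choose the 9 genes, so the counts beside these shares describe them and do not set them apart from other genes. The edgeR test called Irf8 when control mouse10357 was left out, with a log2 fold change of 1.07 and an edgeR adjusted p = 0.0461. Over the single libraries left out, the edgeR adjusted p of Irf8 ran from 0.0461 to 0.321. Over the 7 other alternatives it ran from 0.0035 with DESeq2 to an edgeR adjusted p of 0.638. Control mouse10357 was the highest control BLP library for 6 of the 9 genes and control mouse10380 the lowest for 7, while Mbd3del mouse10360 was the highest of its group for 7. Without the controls mouse10372 and mouse10381, the log2 fold changes were 0.77 for Irf8, 1.02 for Siglech, 0.97 for Runx2 and 1.35 for Cd7, with edgeR adjusted p = 0.485, 0.616, 0.559 and 0.618. Each library came from a different mouse within its group, so these p-values measure the spread between mice. In pools of sorted cells, more cells of a kind and more RNA per cell cannot be told apart.

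**Figure D3:**
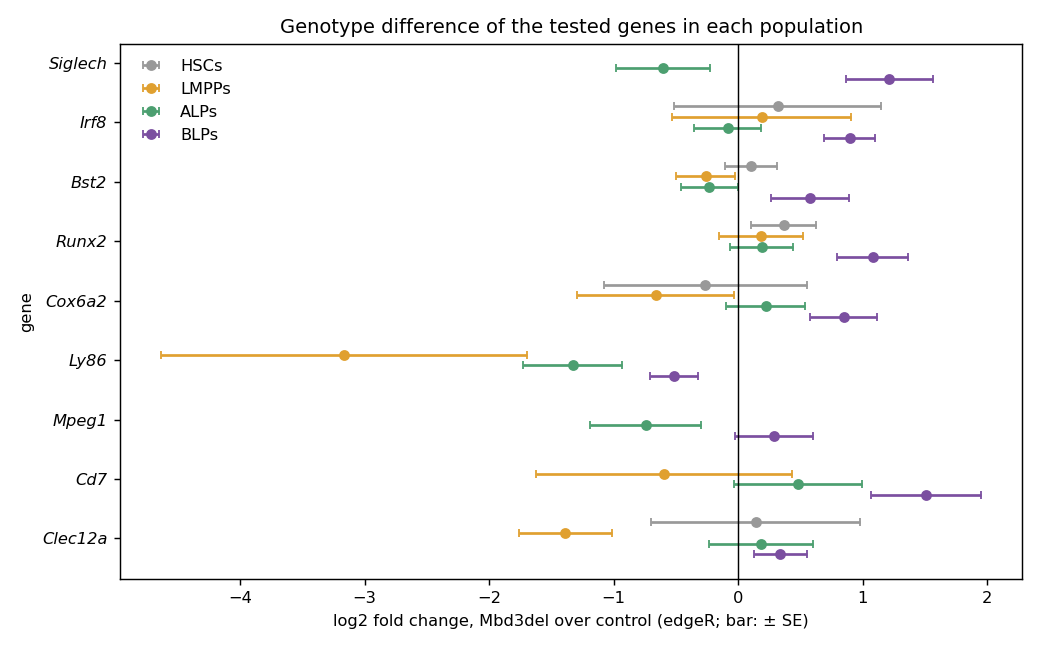
Log2 fold change of Mbd3del over control for each gene in each population in which it passed the expression filter, with horizontal bars of ± SE from edgeR (n = 5 mice per genotype). BLP values lie right of 0 for 8 genes and left for Ly86, and ALP and LMPP values lie on both sides.

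In ALPs 0 of 9 members were called by edgeR (0.0182% of all genes) or DESeq2 (0.127% of all genes), and Ly86 was the 1 gene with an unadjusted p under 0.05 (2.3% of all genes). No member lay wholly above or below the controls, against 0.336% and 0.436% of all genes. Ly86 had 387, 263, 169, 565 and 412 CPM in control and 215, 98.9, 135, 76.1 and 185 CPM in Mbd3del ALPs. Only control mouse10372 fell within the Mbd3del range, and the log2 fold change was -1.33 ± 0.396 (SE, edgeR adjusted p = 1). The estimates of Siglech (-0.60), Irf8 (-0.08), Bst2 (-0.23) and Mpeg1 (-0.74) were also negative and those of Runx2, Cox6a2, Cd7 and Clec12a positive, and the median of the 9 was -0.0831.

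In LMPPs 7 of the 9 genes passed the expression filter, not Siglech and Mpeg1. Of the 7, 0 were called by edgeR (0.0183% of all genes) or DESeq2 (0.33% of all genes). The median log2 fold change of the 7 was -0.598, against 0.0123 over all genes. Clec12a was the 1 gene with an unadjusted p under 0.05 (5.18% of all genes). Its libraries had 124, 188, 76.7, 374 and 169 CPM in control and 81.2, 104, 96.1, 54.9 and 44.1 CPM in Mbd3del LMPPs. The highest value was in control mouse10380, and control mouse10372 lay within the Mbd3del range. The log2 fold change was -1.39 ± 0.373 (SE, edgeR adjusted p = 0.634), and -1.66 without mouse10372 and mouse10381. Ly86 had the estimate farthest from 0, -3.17 ± 1.47 (SE, edgeR adjusted p = 0.936), which was 0.11 without the same 2 mice. Cox6a2 (-0.66) and Irf8 (0.19) changed sign without them as well, to 0.08 and -0.19. Bst2, Runx2, Cd7 and Clec12a kept theirs. The median of the 7 therefore depends on these 2 mice and is not a change shared by the 7 genes. No member lay wholly above or below the controls in LMPPs, where 1.03% and 0.421% of all genes did.

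In HSCs 5 of the 9 genes passed the filter: Irf8, Bst2, Runx2, Cox6a2 and Clec12a. Of these 0 were called by edgeR (0.0176% of all genes) or DESeq2 (0.123% of all genes), and 0 had an unadjusted p under 0.05 (4.11% of all genes). The median of the 5 log2 fold changes was 0.142, and they lay between -0.26 for Cox6a2 and 0.36 for Runx2. None lay wholly above or below the controls, against 0.581% and 0.44% of all genes. The other 4 genes had 12 to 38 counts over the 5 control libraries, too few for the test.

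Other genes of the pathway were taken from 4 lists with 52 genes: regulators of the lineage, sensing of nucleic acid, other genes of these cells, and partners or paralogues of the 9 genes. In control mice the HSC to LMPP step raised 7 and lowered 1 of the 34 that passed the filter (2.76% of all genes were called higher and 3.17% lower). Among those raised were Dntt, which encodes the polymerase that adds bases to joined antigen receptor segments, the cytokine receptor gene Flt3, the RNA sensor gene Tlr7, the receptor chaperone gene Unc93b1, the adaptor gene Tyrobp and the transcription factor gene Ikzf1. Flt3 protein was part of the LMPP gate. The gene lowered was Ctsl, a lysosomal protease. Without control mouse10372 and mouse10381 the calls of Ikzf1, Unc93b1 and Ctsl were lost (edgeR adjusted p = 0.268, 0.0685 and 0.116). Leaving out 1 library, the LMPPs of mouse10380, also ended them (edgeR adjusted p = 0.0921, 0.0614 and 0.0517), and other single libraries kept or ended them. Ikzf1 was not called without the expression filter or without scaling factors either (edgeR adjusted p = 0.0598 and 0.0937). With the mouse as a block, which the design allows since the same mice gave all populations, the call of Unc93b1 was lost as well (edgeR adjusted p = 0.0539). Tlr7 went from 0.621 ± 0.547 CPM in control HSCs to 59.1 ± 26.2 in LMPPs (n = 5 each, SD), with a log2 fold change of 6.68 ± 0.774 (SE, edgeR adjusted p = 0.000171). It had 15 counts over the 5 control HSC libraries and passed the filter through LMPPs, so the size of its change is uncertain. Tyrobp, which encodes the adaptor DAP12 that Siglec-H signals through, went from 9.80 ± 7.61 to 109.6 ± 23.5 CPM (log2 fold change 3.59 ± 0.458, SE, edgeR adjusted p = 0.000351). Siglech itself was near the counting floor in both.

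At the LMPP to ALP step 3 of 39 pathway genes were called higher and 0 lower (0.469% of all genes in each direction). They were Dntt (edgeR adjusted p = 0.000736), Tyrobp (log2 fold change 1.17, edgeR adjusted p = 0.0345) and Pld4, an endosomal nuclease (log2 fold change 2.01, edgeR adjusted p = 0.0436). With the mouse as a block Dntt was called and Tyrobp (edgeR adjusted p = 0.168) and Pld4 (0.0512) were not. Without mouse10372 and mouse10381 Dntt alone was called as well. Leaving out ALP mouse10372 or mouse10380 or LMPP mouse10372 kept the Tyrobp call, and leaving out LMPP mouse10381 kept that of Pld4. Any other single library left out ended the call. Tyrobp was also lost without the expression filter (edgeR adjusted p = 0.0932). Pld4 was lost without scaling factors and in the joint fit (edgeR adjusted p = 0.0592 and 0.125). At the ALP to BLP step 1 of 44 was called higher and 0 lower (0.238% and 0.0275% of all genes), Ly6c2, a surface protein gene of monocytes and plasmacytoid dendritic cells that had 0.981 ± 0.861 CPM in control ALPs and 29.4 ± 13.4 in BLPs (n = 5 each, SD). Its log2 fold change was 4.92 ± 0.907 (SE, edgeR adjusted p = 0.0318), and the call was lost with the mouse as a block (edgeR adjusted p = 0.111) and without the 2 mice (0.439). Of the 10 single libraries, leaving out ALP mouse10372 or mouse10380 or BLP mouse10380 kept the call and leaving out any other ended it. Reads of Ly6c2 can be shared with a similar gene, so its counts are uncertain. It had 37 counts over the 5 control ALP libraries and passed the filter through BLPs, so the size of its change is uncertain too.

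Of the 12 lineage regulators, 10 passed the filter at the first step, where Ikzf1 and Flt3 were called, and none was called at the other steps. Tcf4, Spib, Id2 and Tlr9 are described here for their role and were chosen after their values were seen. Tcf4 had 183 ± 42.2 CPM in control HSCs, 246 ± 76.7 in LMPPs, 479 ± 333 in ALPs and 427 ± 222 at the BLP stage (n = 5 each, SD), and no step of it was called. Spib, an Ets factor gene, was at 0.651 ± 1.38 CPM in control LMPPs and 19.6 ± 20.0 in control BLPs, where the libraries ran from 0.256 to 41.9 CPM. Tlr9, the DNA sensor of these cells, had 10 counts over all 20 control libraries.

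Between genotypes 1 of 45 tested pathway genes was called in BLPs, and 0 of 33, 0 of 37 and 0 of 45 in HSCs, LMPPs and ALPs by edgeR. Over all genes the edgeR shares were 0.0743% in BLPs and 0.0176%, 0.0183% and 0.0182% in the other 3. An unadjusted p under 0.05 was found for 0, 4, 4 and 11 of them in HSCs, LMPPs, ALPs and BLPs, where 4.11%, 5.18%, 2.3% and 8.31% of all genes had one. The gene called in BLPs was Ly6c2, with 29.4 ± 13.4 CPM in control and 193 ± 129 in Mbd3del BLPs (n = 5 each, SD). Its log2 fold change was 2.73 ± 0.432 (SE, edgeR adjusted p = 0.0384), and without mouse10372 and mouse10381 the edgeR adjusted p was 0.221. Leaving out control mouse10357 or Mbd3del mouse10376 kept the call, and leaving out any other single library ended it. DESeq2 called 5 of 45 pathway genes higher in BLPs, 1 of 37 in LMPPs and 0 in HSCs and ALPs, against 1.04%, 0.165%, 0.0528% and 0.0818% of all genes called higher. Of the list of other plasmacytoid dendritic cell genes, 15 of 16 estimates in BLPs were positive with a median of 1.13, and of the nucleic acid sensing list 5 of 9 were, with a median of 0.06. Of the lineage regulators 8 of 12 were positive (median 0.17), and of the partners and paralogues 4 of 8 (median 0.06). Over all genes 47.7% of the estimates in BLPs were positive. Among the markers of other cell types in BLPs, 4 of 5 conventional dendritic cell genes had a positive estimate (list median 1.16), as did 5 of 6 monocyte and macrophage genes (2.06) and 1 of 8 B lineage genes (-0.41). In the difference of the ALP to BLP step, 14 of 17 of the other plasmacytoid dendritic cell genes were positive (median 0.83), as were 7 of 7 monocyte and macrophage genes (median 1.62), 4 of 7 conventional dendritic cell genes (median 0.35) and 1 of 8 B lineage genes (median -1.59). For this step 9 of 12 regulators (median 0.26), 5 of 9 sensing genes (0.40) and 4 of 8 partners and paralogues (-0.01) were positive. Over all genes 50.8% were. Tyrobp had 268 ± 178 CPM in control and 886 ± 363 in Mbd3del BLPs (n = 5 each, SD), a log2 fold change of 1.78 ± 0.381 (SE, edgeR adjusted p = 0.121). Id2, the inhibitor of E proteins, had 28.1 ± 9.93 and 74.1 ± 9.76 CPM, a log2 fold change of 1.43 ± 0.312 (SE, edgeR adjusted p = 0.121). Its groups did not overlap, and 1.51% of all genes lay wholly above the controls in BLPs. Tcf4 had 427 ± 222 and 554 ± 209 CPM.

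**Figure D4:**
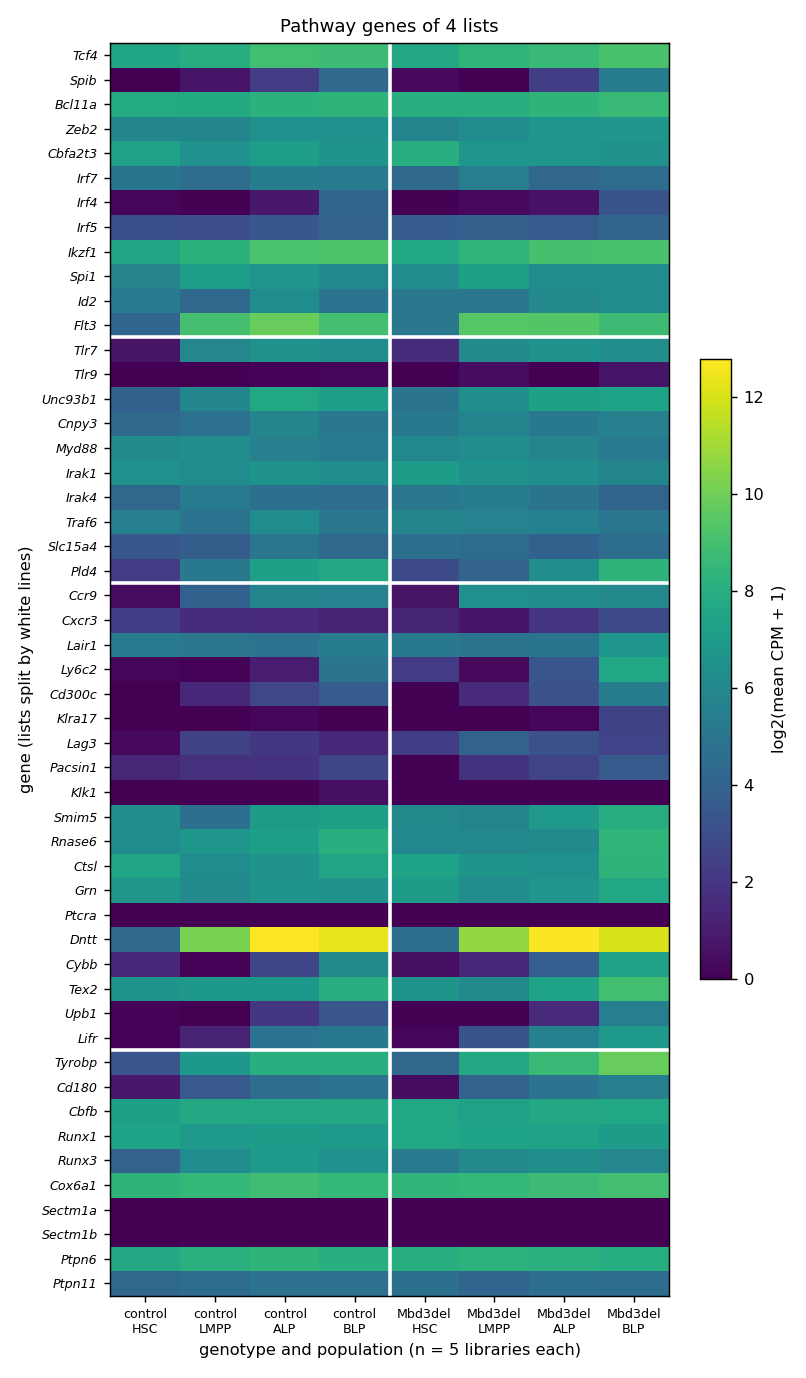
Heat map of log2(mean CPM + 1) of the pathway genes but 1 (vertical axis, 4 lists divided by white lines) in the 8 groups (horizontal axis, n = 5 libraries each), with control on the left and Mbd3del on the right. Dntt and Flt3 brighten from HSCs to ALPs, Tcf4 and Bcl11a are present in every group, and Ly6c2 is brightest in Mbd3del BLPs.

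Markers of other cell types differed beside the BLP values. The monocyte and macrophage list of 10 genes summed to 131 to 223 CPM in control and 282 to 476 CPM in Mbd3del BLPs, so that the groups did not overlap. Cd68, a member of it, was called (log2 fold change 2.87 ± 0.386, SE, edgeR adjusted p = 0.0105). Adgre1 and F13a1 had no count in either group and C1qa none in control BLPs, which allows up to 3 counts over a group. Cd68 also lay wholly above the controls in HSCs, LMPPs and ALPs, without a call there. Over all genes 0.581%, 1.03% and 0.336% did so in these populations. Lyz2, the lysozyme gene of the list, had 134 ± 27.1 CPM in control and 112 ± 41.4 in Mbd3del BLPs (n = 5 each, SD). The whole list summed to 833 to 1139 CPM in control HSCs, 227 to 476 in control ALPs and 288 to 379 in Mbd3del ALPs. Its level in Mbd3del BLPs was thus not particular to them. The conventional dendritic cell list of 11 genes summed to 448 to 723 CPM in control HSCs. In BLPs it summed to 87.4 to 421 CPM in control and 217.5 to 516 CPM in Mbd3del mice, with Batf3 at 0 in both groups. The neutrophil list of 9 summed to 105 to 266 and 161 to 558 CPM and the B lineage list of 8 to 1098 to 2837 and 1122 to 1770 CPM, and each overlapped. The T cell list of 6 summed to 355 to 769 and 260 to 363 CPM, and the natural killer cell list of 6 to 479 to 694 and 360 to 650.0 CPM, with overlap. The erythroid list of 5 reached 3.83 CPM at most. Of the T cell list 4 of 6 genes had counts in each group of BLPs. Cd3e had none in either, Cd3d none in control and Cd3g none in Mbd3del BLPs. Of the natural killer cell list 4 of 6 genes had counts in control and 3 of 6 in Mbd3del BLPs. Ncr1 and Eomes had none in either group and Gzma none in Mbd3del BLPs. The part of these markers in the differences of the 9 genes was not tested. In LMPPs, where Ly86 and Mpeg1 were high in mouse10372, the monocyte and macrophage list summed to 553 to 860 CPM in control and 567 to 753 CPM in Mbd3del mice.

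Some genes ran closely with Siglech and Irf8 over the 40 libraries, which share mice and populations. By Pearson's r of log2(CPM + 1), among 11035 genes with at least 5 CPM in a group, Siglech was followed by Fcrla (0.966), Rag1 (0.954), Ebf1 (0.951), Blk (0.951) and Klrd1 (0.951). Of these, Rag1 encodes a recombinase subunit, and Ebf1 and Blk a transcription factor and a kinase of early B cells. All 5 were at 3 CPM or less on average in HSCs and LMPPs. Unlike Siglech, Ebf1 had a lower mean in Mbd3del BLPs (157 CPM) than in control BLPs (228 CPM), as did Rag1 (163 against 218 CPM) and Blk (108 against 178 CPM). Like Siglech, Fcrla (55.1 against 23.5 CPM) and Klrd1 (108 against 59.5 CPM) had higher means in Mbd3del BLPs. Irf8 was followed by Kmo (0.959), Cox6a2 (0.949), Klrd1 (0.946), Cmah (0.935) and Drc7 (0.932). Among the 9 genes themselves, the r with Siglech was highest for Cox6a2 (0.929) and lowest for Bst2 (0.708). All of these genes had higher means in ALPs and BLPs than in HSCs, which by itself gives a high r, so these values are a description.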

How the data were processed

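Reads of 40 Smart-seq2 libraries were processed with STAR 2.5.2b, GRCm38 and HTSeq 0.6.1p1, as named in the submitters' processing notes. The deposited values are raw counts per feature. No source used here gives the annotation release or strand setting, and the protocol marks neither strand nor molecule, so sense and antisense reads cannot be told apart. Of 128910 rows, 79325 are named repRegion, a term no source explains (0.205% to 2.28% of a library), and were kept out of totals and tests. Of 49585 gene identifiers, 49326 matched GENCODE M21.

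Libraries were grouped by genotype and sorted population, with 5 mice each. edgeR 4.0.16 (R 4.3.3), with its quasi-likelihood F test, was fitted to each comparison's own libraries, with TMM scaling and a filter on low counts (minimum 10, total 15). P-values were adjusted by Benjamini-Hochberg over all genes, at a threshold of 0.05. SE is the absolute log2 fold change over the root of F. DESeq2 1.42.0, other scaling, no filter, a joint fit, the mouse as a block and left-out libraries were alternatives. The fits were tested on simulated data.

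The 9 genes and all gene lists were chosen with earlier results of these data known. All 9 genes are named, pathway genes where called, and other pathway genes only as said in the text. The same mice gave all 4 populations, so the mouse number pairs libraries across populations. Deviations of libraries of 1 mouse correlated with medians of 0.0256 to 0.0734 over genes. No pair of libraries shared equal counts in more than 2.31% of genes. A library at 0 allows up to 3 counts, which covers counting error only. Promoters came from RefSeq (GRCm38.p6). Some genes of the lists are counted but not reported here by name.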

Additional observations from a re-analysis of the deposited data

Results flagged for a closer look

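In 12 of 72 groups of 5 libraries (9 genes in 8 groups), 1 library stood far from the other 4, by the share of the group's range that its gap to the nearest library takes up. Chance flags about 1 in 20 groups where values follow a normal distribution and groups are independent. CPM values are skewed and the groups share libraries, so the rate for these data is not known.

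In Mbd3del BLPs, mouse10360 had 1146 CPM of Siglech (next 554 CPM) and 1609 CPM of Irf8 (next 1099 CPM). In LMPPs, control mouse10380 had 107.9 CPM of Irf8 (next 21.7 CPM) and Mbd3del mouse10365 had 118 CPM of Irf8 (next 40.3 CPM). Cox6a2 was at 41.67 CPM in the LMPPs of control mouse10372 (next 17.3 CPM) and at 32.7 CPM in those of Mbd3del mouse10384 (next 10.5 CPM). Control mouse10372 also had 58.49 CPM of Ly86 in LMPPs (next 6.88 CPM), 594.1 CPM of Mpeg1 in ALPs (next 255 CPM) and, at the low end, 103.2 CPM of Clec12a in ALPs (next 558 CPM). Cd7 had 0 CPM in the LMPPs of control mouse10358 (next 10.5 CPM). In HSCs, Mpeg1 had 3.194 CPM in control mouse10357 (next 0.932 CPM) and Cd7 had 1.836 CPM in Mbd3del mouse10365 (next 0.615 CPM), each from few counts.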

How the results depend on the processing

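In BLPs the genotype estimates of the 9 genes kept their direction in 153 of 153 values over the alternatives. The numbers were 149 of 153 in ALPs, 114 of 119 in LMPPs and 77 of 85 in HSCs. For the differences between steps they were 203 of 216, 216 of 243 and 241 of 243 from the first step to the last. In BLPs edgeR called 0 of the 9 genes and DESeq2 4, and with single libraries left out 0 to 1 were called. Age as a covariate, added after seeing the data, called 0. The count over all genes in BLPs was 8 with edgeR, 22 without the filter, 3 without scaling factors, 158 with DESeq2, 31 in the joint fit, 1 without mouse10372 and mouse10381, 20 with age and 0 to 43 with single libraries left out. The cause was not tested.

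Pathway genes called at the HSC to LMPP step of control mice numbered 8, 14 in the joint fit and 5 to 9 with single libraries left out. At the LMPP to ALP step they numbered 3, 8 with DESeq2, 9 in the joint fit, 1 without the 2 mice and 1 to 4 with single libraries left out. At the ALP to BLP step they numbered 1, 2 with DESeq2, 0 without the 2 mice and 0 to 1 with single libraries left out. With the replicate block, which pairs libraries of 1 mouse, the counts of the 3 steps were 9, 1 and 0, and the block changed no call of the 9 genes in the differences between steps. Over all genes the 3 steps gave 655, 102 and 29 calls, 1132, 282 and 67 with DESeq2, 1165, 363 and 51 in the joint fit, 436, 31 and 8 without the 2 mice and 559, 54 and 14 with the block.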
